A study of Mus musculus with 20 samples.

Results

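The transcripts described here are those of 10 genes of growth hormone signalling and of the liver genes it governs, A1bg, Cux2, Ghr, Stat5a, Stat5b, Bcl6, Cish, Socs2, Igf1 and Igfals, out of 55401 genes in the count table. They were picked by gene symbol. A1bg and Cux2 were picked because their counts are higher in the livers of Nsun6-knockout (KO) mice than in wild-type (WT) livers, so their liver values are given as a description and without a test. The other 8 were picked for their place in the pathway, and every one of the 10 was found in the table.

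Growth hormone binds its receptor on hepatocytes, the associated kinase JAK2 phosphorylates STAT5A and STAT5B, and the dimers enter the nucleus and bind DNA at sites of the form TTCNNNGAA. STAT5 switches on its own brakes, CISH and SOCS2, and the endocrine output of the liver, IGF1 and the acid-labile subunit (Igfals) that carries IGF1 in blood. In rodents the pituitary releases the hormone in sharp pulses in males and almost continuously in females, and the liver reads the difference: CUX2 is a female-biased transcription factor, BCL6 a male-biased repressor that competes for STAT5 sites, and A1bg, a secreted immunoglobulin-fold protein, is a classic female-biased transcript.

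Nsun6 encodes an RNA methyltransferase that deposits 5-methylcytosine, and the knockout carries a CRISPR/Cas9 deletion of exons 3 and 4 on the C57BL/6J background. Poly(A) RNA from liver, kidney, heart, small intestine and spleen of 8-week-old females was sequenced in 2 WT and 2 KO libraries per organ, 20 libraries in all, and no treatment is named for either genotype. The study calls the replicates biological, but the labels do not tie organs to animals, so whether replicate 1 of one organ and of another came from the same mouse is not known here. Counts assigned to genes ran from 15897446 to 44508197 per library (median 28513950), and with 2 libraries per group the p-values below measure the spread between these libraries only. Levels are given as CPM (counts in every 1000000 after TMM scaling over the 20 libraries), and fold changes from edgeR's quasi-likelihood test within an organ. A gene was called when its Benjamini-Hochberg adjusted p was below 0.1 and its fold change above 2.

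The whole-gene Nsun6 count does not check the genotype well, because exons outside the deletion are counted too. In the liver Nsun6 stood at 7.23 and 4.83 CPM in the WT libraries and at 4.03 and 4.56 CPM in the KO libraries. Its log2 fold change was -0.49 (SE 0.34) in liver, -0.67 (SE 0.43) in kidney and 0.08 (SE 0.34) in spleen, none of them called by edgeR (adjusted p = 0.999 in liver, 1.0 in the other organs). The stated sex could be checked: Xist was present in all 4 livers and the 4 Y-linked genes examined had 0 counts there. The labelled tissue could be checked as well, since all 10 hepatocyte markers were detected in every liver with albumin as the most abundant. Their summed level was 194957 CPM in WT replicate 1 against 375825 in WT replicate 2, 334256 in KO replicate 1 and 326914 in KO replicate 2. The same WT replicate 1 liver held 23.5 CPM of heart-muscle transcripts against 1.31 to 3.71 CPM in the other livers, with Myl2 the most abundant at 10.9 CPM. The liver values of Socs2, Igfals and Igf1 and the liver list counts are therefore given with and without it. A fit without 1 WT liver has a WT arm of 1 library, takes its spread from the KO pair and assumes that the lone library varies alike, so its calls carry no check on the WT side. By edgeR such a fit called 205 of 16365 genes (1.25%) without WT replicate 1 and 193 of 16671 (1.16%) without WT replicate 2. In spleen the WT replicate 2 library stood apart, with 3431 CPM of hepatocyte transcripts against 7.07, 121 and 173 CPM in the other spleens. In bulk tissue a lower level can mean fewer cells of a type or less RNA per cell, and the counts cannot tell these apart.

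Start-site sequences were available from RefSeq (GRCm38.p6) for 9 of the 10 genes (all but Socs2), as 16 windows running from 250 bases before to 20 bases after an annotated start. The motif searched was TTCNNNGAA, which reads the same on both strands. It occurs in 7.58% of the 32851 windows of that length in the table, and in 6 of the 16 member windows, belonging to A1bg, Bcl6, Cish and Igfals. A match is a description of letters and not a binding site. The windows below are shown because they belong to a member chosen for its liver level (A1bg), to the repressor that shares STAT5 sites (Bcl6), and to STAT5 target genes (Cish and Igfals). They run 5′ to 3′ on the gene's strand with each match in capitals.
A1bg, chr15:60921251-60921520, minus strand: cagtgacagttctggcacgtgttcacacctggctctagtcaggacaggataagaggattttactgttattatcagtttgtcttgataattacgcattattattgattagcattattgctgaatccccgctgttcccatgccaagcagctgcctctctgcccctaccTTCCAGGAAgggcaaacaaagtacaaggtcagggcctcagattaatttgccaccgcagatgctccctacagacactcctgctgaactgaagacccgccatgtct
Bcl6, chr16:23981264-23981533, minus strand: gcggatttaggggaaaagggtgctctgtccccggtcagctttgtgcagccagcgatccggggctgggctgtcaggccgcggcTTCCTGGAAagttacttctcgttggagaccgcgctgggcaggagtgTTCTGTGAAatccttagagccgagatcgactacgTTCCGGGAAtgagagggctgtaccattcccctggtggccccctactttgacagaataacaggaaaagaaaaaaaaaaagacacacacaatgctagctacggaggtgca
Cish, chr9:107296409-107296678, plus strand: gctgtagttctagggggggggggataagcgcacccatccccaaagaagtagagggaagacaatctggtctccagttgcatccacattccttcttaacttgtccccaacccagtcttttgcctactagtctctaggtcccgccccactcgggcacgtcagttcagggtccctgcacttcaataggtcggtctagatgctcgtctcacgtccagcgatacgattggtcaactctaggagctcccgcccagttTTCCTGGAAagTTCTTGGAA
Igfals, chr17:24877981-24878250, plus strand: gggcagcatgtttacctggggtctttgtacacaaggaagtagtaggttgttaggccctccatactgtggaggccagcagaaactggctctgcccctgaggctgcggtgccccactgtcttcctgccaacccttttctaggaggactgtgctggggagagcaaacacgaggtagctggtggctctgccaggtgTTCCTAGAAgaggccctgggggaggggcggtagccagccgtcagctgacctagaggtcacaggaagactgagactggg
The A1bg match begins 84 bases before the start site. The Bcl6 window shown holds 3 matches, beginning 168, 122 and 88 bases upstream. Another Bcl6 window holds 1 match, which begins 118 bases before its own start. In Cish a pair of matches sits directly at the start, the later one beginning 11 bases past the start of the earlier. In this Igfals window the match begins 58 bases upstream, and a neighbouring Igfals window holds another that begins 236 bases before its own start. The windows of Cux2, Ghr, Stat5a, Stat5b and Igf1 did not hold these letters.

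The question in the liver was how the receptor, the transducers, the feedback inhibitors and the endocrine outputs stood in livers in which A1bg and Cux2 differ. None of the 8 testable members was called between KO and WT livers (edgeR's quasi-likelihood test), against 8 of 15729 genes tested (0.0509%), all of them higher in KO. At an unadjusted p under 0.05 there were 2 of the 8, Socs2 and Igfals, beside 739 of the 15729 genes, and DESeq2 called 1, Socs2, beside 0.349% of all genes. KO and WT values did not overlap for 4 of the 8. Socs2, Igfals and Igf1 lay above WT in both KO livers, where 17.1% of all genes tested did, and Ghr lay below, where 16.1% did.

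A1bg (chr15:60896859-60923012, GRCm38, minus strand) stood at 21.1 and 25.9 CPM in the WT livers and at 293 and 320 CPM in the KO livers. Its log2 fold change was 3.70, and the KO values lie more than an order of magnitude from the WT values. Of its exon bases 16.5% are shared with 4930402D18Rik on the opposite strand, which had between 0 and 4 counts in the livers against 488 to 8686 counts for A1bg. Cux2 (chr5:121856366-122050102, minus strand) stood at 19.4 and 23.3 CPM in WT and at 56.4 and 72.7 CPM in KO, a log2 fold change of 1.59. These are the values that selected the pair, and nothing is read from them beyond their size.

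**Figure D1:**
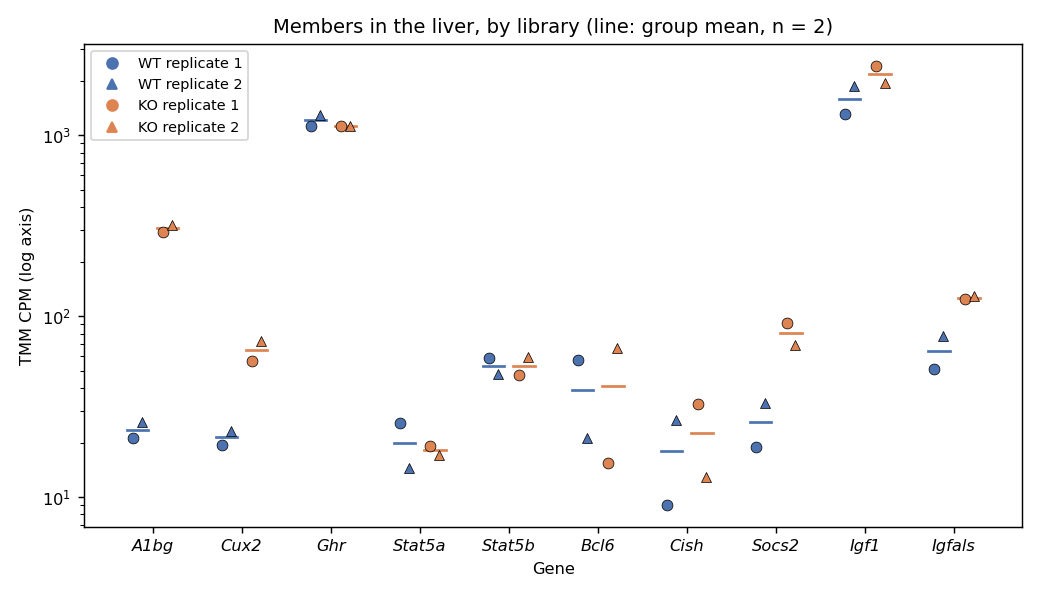
Levels of the 10 genes in the 4 livers, in TMM CPM on a log axis, with WT in blue, KO in orange, circles for replicate 1, triangles for replicate 2 and a short line at each group mean. A1bg, Cux2, Socs2 and Igfals show separated groups with KO higher, whereas Bcl6 and Cish are spread widely inside each genotype.

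The receptor and the transducers were close in KO and WT livers. Ghr (chr15:3317760-3583492), the growth hormone receptor, was measured at 1125 and 1298 CPM in WT and at 1123 and 1118 CPM in KO. The groups just failed to meet, and the log2 fold change was -0.12 (SE 0.23, edgeR adjusted p = 0.999). Stat5a (chr11:100859351-100885169) stood at 25.5 and 14.4 CPM in WT and 19.1 and 17 CPM in KO, the KO livers falling inside the WT range. Stat5b (chr11:100780731-100850724), the main growth hormone transducer of the liver, stood at 58.7 and 47.7 CPM in WT and 47.1 and 59.2 CPM in KO. Its replicates of either genotype differed by more than the genotype means, 53.2 and 53.2 CPM. The log2 fold changes were -0.14 (SE 0.28) for Stat5a and -0.01 (SE 0.20) for Stat5b, and neither was called (edgeR adjusted p = 0.999 each).

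Among the inhibitors, Socs2 (chr10:95385362-95417180), which binds the activated receptor and promotes its turnover, had the largest liver difference of the 8. It stood at 18.9 and 33.1 CPM in the WT livers and at 91.8 and 68.8 CPM in the KO livers. Both KO livers therefore held over double the level of the higher WT liver. The log2 fold change was 1.63 (SE 0.30), a 3.09-fold difference, with an adjusted p of 0.454 by edgeR's quasi-likelihood test and of 0.000249 by DESeq2. DESeq2 called 0.349% of all genes. The log2 fold change was 1.26 against WT replicate 2 alone (edgeR adjusted p = 0.0209) and 2.11 against WT replicate 1 alone (edgeR adjusted p = 0.00178), both calls resting on a single WT liver. Leaving out a KO library gave 1.38 and 1.83, neither called.

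Cish (chr9:107296026-107302784), the other STAT5-induced inhibitor of the list, did not separate by genotype. It stood at 9.05 and 26.8 CPM in WT and 32.4 and 12.9 CPM in KO, and in each genotype the replicates were farther apart than the genotype means (17.9 and 22.7 CPM). Of its exon bases 11.5% are shared with Gm17040 and Gm17041 on the opposite strand, which had 14 to 37 counts and 0 counts in the livers. Bcl6 (chr16:23965052-23988852) stood at 57.0 and 21.3 CPM in WT and 15.3 and 66.9 CPM in KO. Bcl6 was thus high in the WT replicate 1 and KO replicate 2 livers, the same 2 in which Cish was low, with 4 libraries to judge by. The log2 fold changes, 0.34 (SE 0.69) for Cish and 0.06 (SE 0.85) for Bcl6, have errors larger than themselves and change sign with the library left out.

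Neither endocrine output was called. Igfals (chr17:24865997-24882010) stood at 51.1 and 77.9 CPM in the WT livers and at 124 and 128 CPM in the KO livers, with the KO pair close together and above both WT livers. The log2 fold change was 0.96 (SE 0.23), 1.95-fold, with an adjusted p of 0.775 by edgeR's quasi-likelihood test and of 0.0930 by DESeq2, in both cases under the minimum fold change. Igf1 (chr10:87858265-87937042) stood at 1317 and 1864 CPM in WT and at 2415 and 1937 CPM in KO. Its groups did not overlap, but the lower KO liver lay only just above the higher WT liver, and the log2 fold change of 0.45 (SE 0.29) was not called (edgeR adjusted p = 0.999). For all 3 genes with KO above WT the lowest library was WT replicate 1, the liver with the lowest sum of hepatocyte transcripts. The part of that library's makeup in these differences was not tested. Without it the log2 fold change was 0.67 for Igfals and 0.20 for Igf1, neither called. Against that library alone, without WT replicate 2, it was 1.32 for Igfals (edgeR adjusted p = 0.00699, a call that rests on 1 WT liver) and 0.74 for Igf1, not called.

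The wider pathway was counted from gene lists, with A1bg and Cux2 left out. Of 27 genes of growth hormone signal transduction, all tested, none was called in KO liver by edgeR, 3 had an unadjusted p under 0.05, and DESeq2 called Socs2 alone. There were 14 fold changes above 0 and 13 below, and the median log2 fold change was 0.00 beside 0.00 for all 15729 genes. The highest were Socs2, Onecut1 (1.10), a transcription factor induced by growth hormone, and Prlr (0.72), the prolactin receptor. Prlr stood at 322 and 324 CPM in WT and at 466 and 601 CPM in KO (edgeR adjusted p = 0.947). The lowest were Cebpb (-0.50) and Pik3r1 (-0.27). Jak2, the kinase bound to the receptor, was at -0.15 and Jak1 at -0.08. Without liver WT replicate 1, Socs2 and Irs2 were called higher and Cebpb lower and the list's median was 0.09, and without WT replicate 2 Socs2 alone was called. In the IGF axis 13 of 18 genes were tested, none was called by edgeR or DESeq2, 2 had an unadjusted p under 0.05, and 4 were positive and 9 negative with a median of -0.16. Behind Igfals and Igf1 came Igfbp1 (0.28), and the lowest were the binding protein Igfbp6 (-0.57), the insulin receptor Insr (-0.43) and the IGF1 receptor Igf1r (-0.40). No gene of the axis was called without WT replicate 1, and Igfals alone was called without WT replicate 2.

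Liver transcription factors gave 21 tested genes, none called by edgeR (2 with an unadjusted p under 0.05), 17 positive and 4 negative with a median of 0.09. High in the list were Onecut1 (1.10) and Nr0b2 (0.87), and Cebpb (-0.50), Foxa3 (-0.47) and Prox1 (-0.24) were the lowest. Hnf4a, a master regulator of hepatocytes, stood at 0.11 (SE 0.29). With WT replicate 1 left out, edgeR called 3 genes of the list higher and 2 lower (median 0.12). With WT replicate 2 left out it called 1 higher (median 0.25).

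Of the 7 lists counted in the liver, the female-biased genes were the only list with members called by edgeR. The lists were written with earlier results of these data known. The calls below are therefore a description and not a test of the list. Of 27, all tested, 3 were called higher and none lower by edgeR, 8 had an unadjusted p under 0.05, 22 were positive and 5 negative, and the median log2 fold change was 0.32. Of all 15729 genes tested, edgeR called 8, 739 had an unadjusted p under 0.05, and 7966 were positive and 7763 negative. The 3 were Sult3a2, Sult3a1 and Cyp3a41a. Sult3a1, a sulfotransferase, rose from 176 and 158 CPM to 880 and 888 CPM, a log2 fold change of 2.40 (SE 0.22, edgeR adjusted p = 0.0121). Its close relative Sult3a2 rose from 2.65 and 1.17 CPM to 41.4 and 41.1 CPM, 4.4 (SE 0.35, edgeR adjusted p = 0.00639). Cyp3a41a, a cytochrome P450 of steroid and drug metabolism, rose from 204 and 184 CPM to 764 and 652 CPM, 1.87 (SE 0.22, edgeR adjusted p = 0.0431). Reads of the Sult3a pair and of Cyp3a41a and Cyp3a41b may be split between near-identical copies, so their separate levels are uncertain. DESeq2 called 5 of the list, adding Cyp3a44 and Cyp2c69, beside 0.349% of all genes. The lowest of the list were Cyp2b10 (-1.15), a target of the nuclear receptor CAR, Sult2a2 (-0.64) and Sult2a1 (-0.52). Without liver WT replicate 1 there were 5 called higher and none lower, without WT replicate 2 there were 5 called higher and Cyp2b10 was called lower, and without either KO library only Sult3a2 was called, beside 0.0241% of all genes without KO replicate 1 and 0.0121% without KO replicate 2.

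Male-biased liver genes did not show the opposite picture. Of 27, 24 were tested, none was called by edgeR or DESeq2, 2 had an unadjusted p under 0.05, and 17 were positive and 7 negative with a median of 0.26. Hsd3b5 (1.37), Mup7 (0.98) and Serpina1e (0.78) were the highest and Cyp2d9 (-1.37), Cyp4a12a (-1.30) and Elovl3 (-1.18) the lowest. Hsd3b5 stood at 1.58 and 33.7 CPM in WT and at 38.9 and 52.7 CPM in KO, and 1 library therefore sets most of its difference. The list turned with the WT libraries: without WT replicate 1 the median was -0.17 and 2 genes, Cyp2d9 and Mup1, were called lower, and without WT replicate 2 it was 0.82 and 8 genes were called higher. Each of these counts rests on a single WT liver. Of 12 genes of the fasting response none was called by edgeR or DESeq2 (1 with an unadjusted p under 0.05, median 0.26). The highest were Acot1 (0.91), Fgf21 (0.89) and Cyp4a10 (0.76) and the lowest Ppargc1a (-0.83), Cpt1a (-0.36) and G6pc (-0.05). This list turned in the same way: without WT replicate 1 the median was -0.02 and Pdk4 was called higher, and without WT replicate 2 it was 0.85 and 4 genes were called higher. Of 14 circadian clock genes tested none was called by edgeR or DESeq2 (3 with an unadjusted p under 0.05), 3 were positive and 11 negative, and the median was -0.28. Arntl (1.25), Nr1d1 (0.53) and Clock (0.42) were the highest and Bhlhe41 (-1.31), Ciart (-1.17) and Hlf (-0.49) the lowest. Without WT replicate 1 Arntl was called higher and the median was -0.18, and without WT replicate 2 none was called and it was -0.38. Feeding state and hour of collection are not given in the sources used here.

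**Figure D2:**
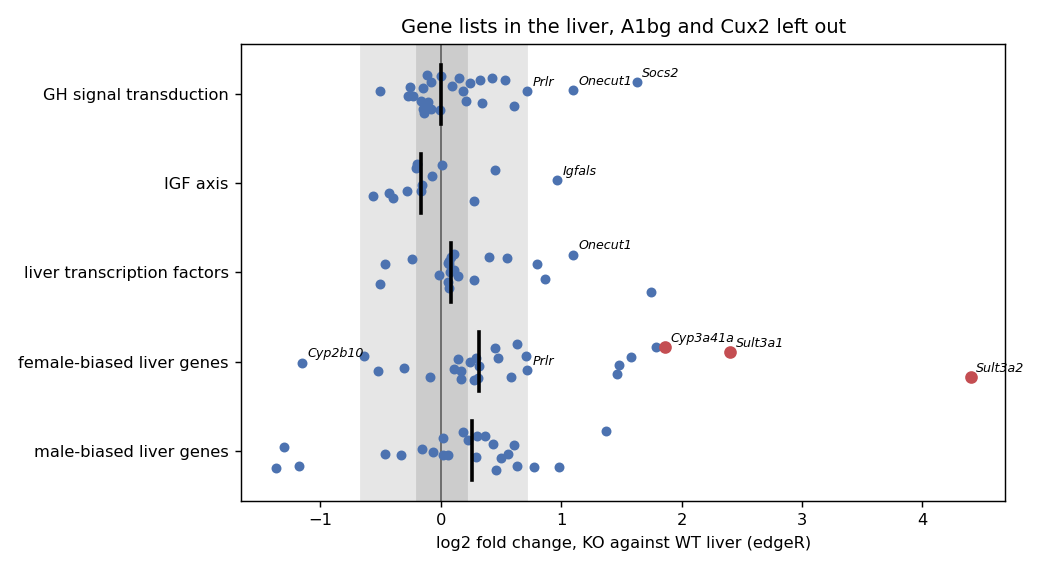
Log2 fold changes of the tested genes of 5 lists in KO against WT liver, 1 point per gene, with called genes in red and a black bar at each list's median; the grey bands hold the middle 50% and 90% of all 15729 genes. The 3 called female-biased genes lie to the right of the bands, and the medians of the signal transduction list and of all genes coincide at 0.00.

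The second question was whether the members differed between genotypes outside the liver. None was called in kidney (0 of 9 tested, background 0%), heart (0 of 10, 0%), small intestine (0 of 8, 0%) or spleen (0 of 10, 0.223%) by edgeR. DESeq2, which called 0%, 0.0107%, 0.334% and 1.35% of all genes in these organs, called no member either. Of simulated 4-fold changes the edgeR test recovered 26 of 188 in kidney, 129 of 190 in heart, 0 of 185 in small intestine and 133 of 191 in spleen. The counts of 0 in kidney and small intestine therefore say little. At an unadjusted p under 0.05 there was 1 in kidney (Igfals, beside 112 of 17550 genes), 1 in small intestine (Ghr, beside 422 of 17680 genes) and 0 in heart and spleen (117 of 16632 and 969 of 18834 genes). Over these 37 tests the log2 fold changes ran from -2.80 (A1bg in spleen) to 1.21 (Igfals in kidney), and the lowest edgeR adjusted p was 1.0. Among the members tested, KO and WT values did not overlap for 2 in kidney (Socs2 and Igfals, both above WT, beside 11.7% of genes above and 9.3% below) and for 6 in heart (4 above and 2 below, beside 8.6% and 8.64%). They did not overlap for 3 in small intestine (Ghr, Socs2 and Igf1, all above, beside 15.1% above and 10% below) and for none in spleen (14.6% above and 16.9% below). Igfals, untested in small intestine at 4 to 8 counts per library, lay lower in both KO libraries there. The members were also averaged over the 4 organs in 1 fit of all libraries. None of the 8 members that were testable in all 4 was called (0% of 23159 genes, edgeR, and none by DESeq2). The test of whether the genotype effect differs between organs covered another set of 8 members, those other than A1bg and Cux2. Igfals was among them, although it was untested in small intestine. This test called none of the 8 and no gene at all (0%). The same fit recovered 0 of 193 simulated 4-fold differences between organs, so at this depth of replication that result says little.

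Socs2 was the member whose KO libraries most often lay above WT. In kidney it stood at 17.9 and 43.7 CPM in WT and at 67.9 and 47.6 CPM in KO. In heart it stood at 71.7 and 46.2 CPM in WT and at 88.2 and 77.6 CPM in KO. In small intestine it stood at 44.3 and 33 CPM in WT and at 115 and 47.0 CPM in KO. The library at 115 CPM, small intestine KO replicate 1, also stood apart in its markers. It held 351 CPM of heart-muscle transcripts, led by Myl2 at 170 CPM, against 15.1 to 32.9 CPM in the other 3. The stellate-cell and fibroblast list summed to 1222 CPM there, against 356 to 688 CPM. Des alone gave 706 CPM of that sum, and it also led this list in both KO hearts. The sum therefore cannot be assigned to fibroblasts alone. The Socs2 values of the KO pair were above those of the WT pair in each of the 3 organs. However, the nearest WT and KO libraries were close, and the WT kidneys were farther apart than the WT livers. In spleen, where Socs2 was lowest, the 4 libraries at 9.94, 8.85, 8.50 and 9.72 CPM (WT replicates, then KO replicates) overlapped. The log2 fold changes were 0.89 (SE 0.50) in kidney, 0.47 (SE 0.29) in heart and 1.01 (SE 0.51) in small intestine, each with an edgeR adjusted p of 1.0. Without KO replicate 1 the small intestine value fell to 0.27. Leaving out 1 WT kidney at a time gave 0.40 (replicate 1) and 1.67 (replicate 2), and leaving out 1 heart library at a time gave 0.19 to 0.85. Averaged over the organs other than the liver the difference was 0.60 (SE 0.23, edgeR unadjusted p = 0.0186, edgeR adjusted p = 1.0).

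Igfals followed the liver's direction in kidney and heart. In kidney it stood at 10.4 and 7.08 CPM in WT and at 25.6 and 15.9 CPM in KO, a log2 fold change of 1.21 (SE 0.45). In heart it stood at 3.23 and 3.24 CPM in WT and at 4.80 and 4.67 CPM in KO, 0.53 (SE 0.38). In both organs each KO library exceeded each WT library, and in neither was the gene called (edgeR adjusted p = 1.0 each). In spleen Igfals stood at 0.172 and 1.44 CPM in WT and 0.432 and 0.141 CPM in KO, and its 55 counts in WT replicate 2 came with the hepatocyte transcripts of that library. A1bg moved with it: it had 0 and 184 counts in the WT spleens and 8 and 21 in the KO spleens, so the spleen value of A1bg is that of 1 library. The part of those hepatocyte transcripts in either value was not tested.

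In the small intestine Ghr was at 19.6 CPM in each WT library and at 44.8 and 37.8 CPM in KO (log2 fold change 1.03, SE 0.27). Both KO libraries were above the WT pair, yet with a biological coefficient of variation of 0.602 in this organ, the highest of the 5, the gene was not called (edgeR adjusted p = 1.0). That fit had no replicate block, and the deviations of same-numbered WT and KO libraries correlated at 0.57 there. With the block no gene was called in this organ either. Stellate-cell and fibroblast markers moved the same way as Ghr there: 11 of 12 were positive with a median of 0.75, and none was called. Their sum was 382 and 356 CPM in WT and 1222 and 688 CPM in KO, with all 12 detected in each library. Des, which also led this list in the KO hearts, gave 706 and 299 CPM of the KO sums. Endothelial markers were positive in 7 of 7 tested (median 0.63), though their sum was 25 and 26.5 CPM in WT and 19.7 and 73.9 CPM in KO. The part of these markers in the Ghr and Socs2 differences was not tested, and without KO replicate 1 the Ghr value was 0.93. In kidney the Ghr values, 599 and 1328 CPM in WT and 853 and 1107 CPM in KO, overlapped, and in heart they stayed between 267 and 291 CPM. In heart Cish stood at 47.9 and 45.1 CPM in WT and at 68.1 and 58.1 CPM in KO (0.42, SE 0.24), and Bcl6 stood at 15.2 and 21.4 CPM in WT and at 12.4 and 11.1 CPM in KO (-0.66, SE 0.31). Neither was called (edgeR adjusted p = 1.0 each). The heart with the most Bcl6, WT replicate 2, also had the highest sums of the B cell and T cell marker lists. Its B cell and germinal center list summed to 47.0 CPM, led by Mki67 at 11.4 CPM, against 19.4 to 34.3 CPM in the other hearts. T cell markers summed to 8.38 CPM there, against 1.80 to 2.92 CPM. The part of these markers in the Bcl6 value was not tested. Cux2 overlapped between genotypes in every other organ: it ran from 0.331 to 4.15 CPM in kidney, 7.87 to 17 in heart, 3.60 to 16.4 in small intestine and 0.518 to 1.85 in spleen. Among the alternatives run, calls of members in kidney appeared only in fits with a single WT kidney. Without WT replicate 1 Cux2, Stat5a, Bcl6 and Igfals passed the thresholds as higher in KO, but so did 14.3% of all genes, with 1.81% lower and 16.1% in either direction. Without WT replicate 2 Socs2 did, beside 1.37% of all genes higher and 2.37% in either direction.

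**Figure D3:**
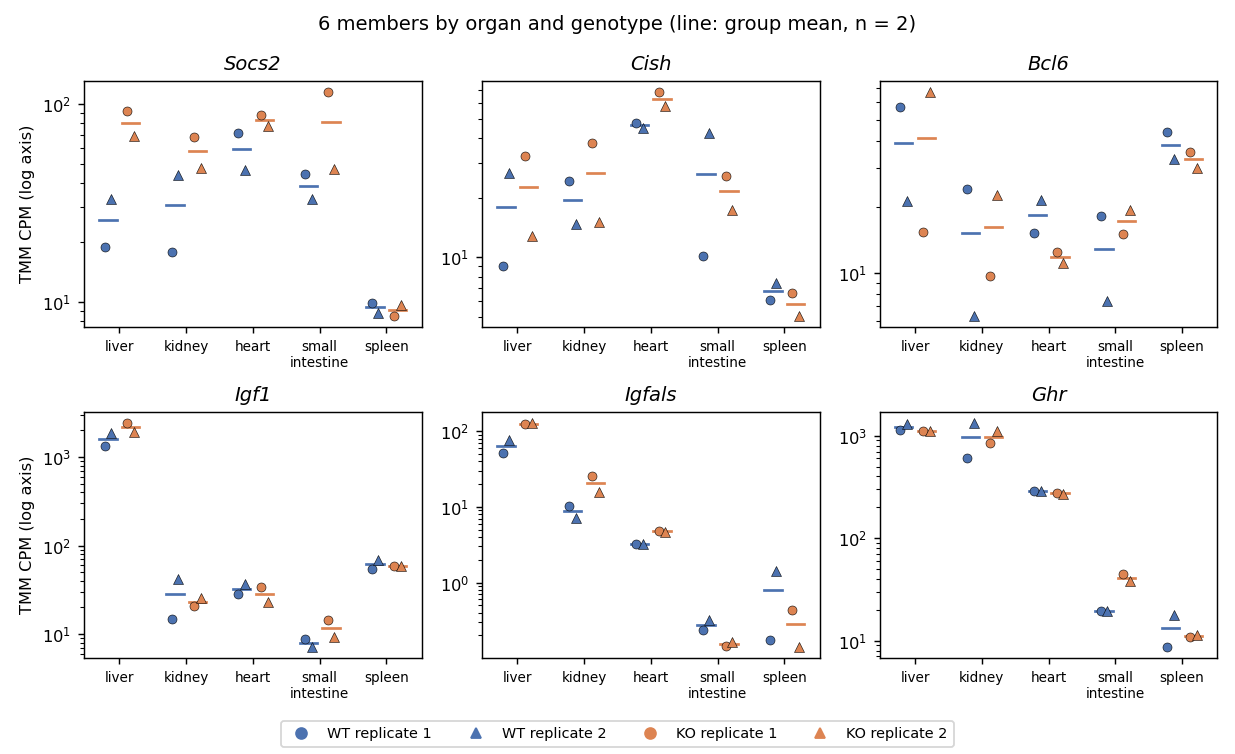
Levels of Socs2, Cish, Bcl6, Igf1, Igfals and Ghr in the 20 libraries, in TMM CPM on log axes that differ between panels, with WT in blue, KO in orange, circles for replicate 1, triangles for replicate 2 and lines at group means. Socs2 lies higher in KO in every organ but the spleen, and Igfals in liver, kidney and heart.

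The third comparison was of the organs, over both genotypes. A member was tested between organs only where its counts were high enough to be tested within each organ involved. A1bg and Cux2 were not tested against the liver, whose KO libraries chose them. Liver against the mean of the other 4 organs was called for 3 of 7 members by edgeR, all higher in liver, where 34.7% of all genes were called and 16.5% were called higher. The 3 were Igf1, Ghr and Bcl6. Over the 10 pairs of organs 53 of 83 member tests were called, beside 46.8% of the tests of all genes. Ghr was called in 9 of its 10 pairs, Igfals in each of its 6, and Socs2 and Stat5a in 4 of 10 each.

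The hepatic outputs were highest in the liver. A1bg averaged 165 ± 164 CPM in liver (SD, n = 4, both genotypes) and 1.37 ± 2.30 CPM in spleen, 0.339 ± 0.150 in heart, 0.110 ± 0.0560 in kidney and 0.0291 ± 0.0581 in small intestine. In WT alone the liver mean was 23.5 CPM. The step from spleen to heart was not called, and the kidney and intestinal values rest on 0 to 5 counts per library. Igf1 averaged 1883 ± 450 CPM in liver, 59.7 ± 6.19 in spleen, 30.7 ± 6.0 in heart, 25.8 ± 11.9 in kidney and 9.90 ± 3.08 in small intestine, where the step from spleen to heart stayed under the minimum fold change and heart and kidney overlapped. Igfals averaged 95.4 ± 37.3 CPM in liver, 14.7 ± 8.10 in kidney, 3.98 ± 0.865 in heart, 0.545 ± 0.608 in spleen and 0.215 ± 0.0778 in small intestine, and each step down to spleen was called. The spleen and intestine ranges overlapped, with the intestine untested at 4 to 8 counts per library.

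The receptor and its transducers had other profiles. Ghr averaged 1166 ± 88.1 CPM in liver and 972 ± 315 in kidney, a step that was not called (edgeR adjusted p = 0.509), then 281 ± 10.7 in heart, 30.5 ± 12.8 in small intestine and 12.2 ± 3.99 in spleen. Stat5b averaged 53.2 ± 6.65 CPM in liver, 49.1 ± 10.1 in heart, 48.0 ± 3.59 in spleen, 24.1 ± 7.91 in kidney and 18.6 ± 2.89 in small intestine. Its upper 3 organs overlapped, as did its lower 2. Stat5a averaged 20.8 ± 2.90 CPM in spleen, 19 ± 4.72 in liver, 15.8 ± 2.16 in heart, 13.3 ± 6.60 in kidney and 5.45 ± 1.25 in small intestine, where only the last step was called. Scaling by TPM, which divides by length and by each library's total of per-length counts, moved some of these orders: Ghr was then highest in kidney (299 against 210 in liver), Stat5b in spleen (33 against 15.8) and Bcl6 in spleen (20.4 against 10). The lead of the liver over the next organ narrowed from 4.98 to 3.73 on the log2 scale for Igf1 and from 2.69 to 1.79 for Igfals.

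The inhibitors and the sex-biased transcription factors had other orders. Socs2 averaged 70.9 ± 17.8 CPM in heart, 59.7 ± 37.1 in small intestine, 53.2 ± 33.2 in liver, 44.3 ± 20.5 in kidney and 9.25 ± 0.686 in spleen, and the last step, down to spleen, was the only one called. Cish averaged 54.8 ± 10.5 CPM in heart, 23.9 ± 13.9 in small intestine, 23 ± 10.9 in kidney, 20.3 ± 11.1 in liver and 6.29 ± 0.984 in spleen, with the top and bottom steps called and the middle 3 overlapping. Heart therefore held the highest level of both STAT5-induced inhibitors, though for Socs2 not distinguishably, and spleen the lowest of both. Bcl6 averaged 40.1 ± 25.6 CPM in liver and 35.7 ± 5.85 in spleen, which overlapped, and 15.7 ± 8.96, 15 ± 4.56 and 15 ± 5.37 in kidney, heart and small intestine. Cux2 averaged 42.9 ± 25.9 CPM in liver, 12.4 ± 3.74 in heart, 9.29 ± 5.39 in small intestine, 2.16 ± 1.56 in kidney and 0.967 ± 0.608 in spleen, and the step from intestine to kidney was called. In WT alone Cux2 averaged 21.3 CPM in liver and 12.3 CPM in heart.

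**Figure D4:**
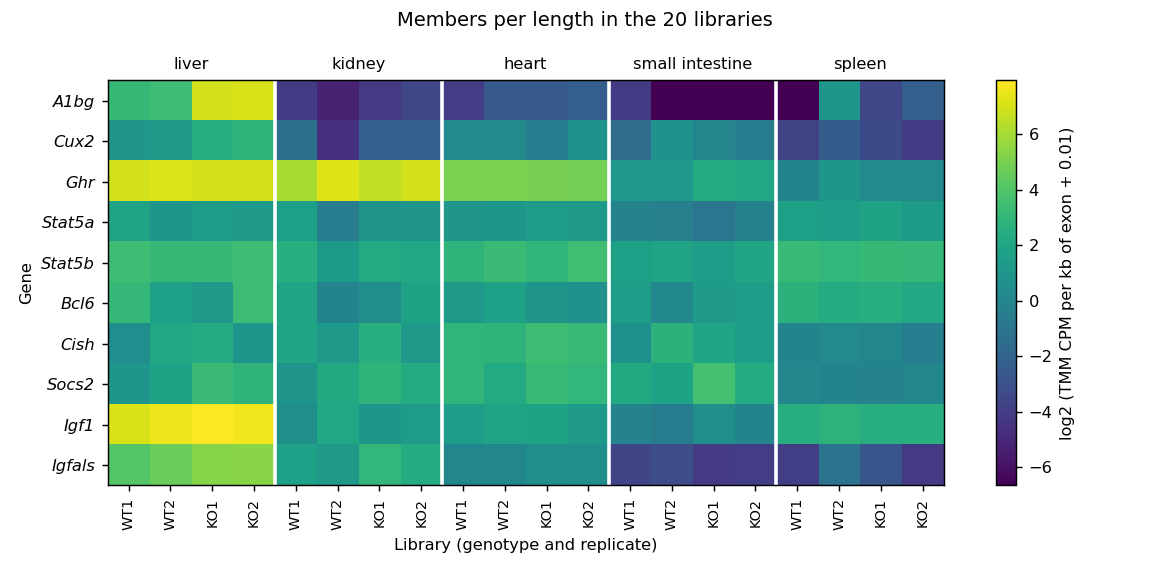
Levels of the 10 genes per kilobase of exon in the 20 libraries, as the log2 of TMM CPM per kilobase plus 0.01, with columns grouped by organ and lighter colours for higher levels. Igf1 and Ghr are the highest rows in the WT livers. A1bg shows a pair of bright KO livers, near the level of Ghr there, beside a dimmer WT pair and 1 raised spleen library.

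Per kilobase of exon, which allows genes to be set side by side, the WT liver means were 161 CPM per kb for Igf1, 134 for Ghr, 20.4 for Igfals, 9.79 for A1bg and 9.61 for Stat5b. Bcl6 at 5.84, Stat5a at 2.80, Cish at 2.79, Socs2 at 2.73 and Cux2 at 2.12 were lower. In KO livers A1bg, at 128 CPM per kb, stood beside Ghr at 124, below Igf1 at 220. In heart Ghr led with 31.0 CPM per kb, followed by Stat5b at 8.86 and Cish at 8.54. In spleen Stat5b was the highest at 8.66 and Ghr was at 1.35.

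The genes whose log2 levels ran most like a member's over the 20 libraries were named by Pearson's r, a description that is set mainly by organ and carries no test. For A1bg they were Ahsg (r = 0.96), Itih4 (0.96) and Mug1 (0.96), all secreted hepatocyte proteins. For Cux2 they were Arhgef37 (0.96), Maob (0.91) and Mavs (0.91). For Ghr they were Aldh6a1 (0.99), Hibadh (0.99) and Ces1d (0.98), the first pair being enzymes of valine breakdown. For Igf1 they were Trf (0.99), which encodes transferrin, C1s1 (0.99) and Gm4951 (0.98). For Igfals they were Kyat3 (0.98), Gcdh (0.97) and Acss3 (0.96). Socs2 ran most like Vapb (0.90), Gm11451 (0.89) and Ldha-ps2 (0.89), and Cish most like Uqcrc1 (0.92), Cenpb (0.90) and Cyc1 (0.90), of which Uqcrc1 and Cyc1 are subunits of respiratory complex III. Stat5a ran most like Trmt1 (0.93), Pdcd11 (0.93) and Adat1 (0.92), and Stat5b most like Tbkbp1 (0.94), Sbk1 (0.94) and Plcg1 (0.93). Bcl6 had the weakest likeness, with Slc15a4 (0.82), Guca1b (0.81) and Maml1 (0.80).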

How the data were processed

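The deposited table holds whole-number read counts per gene for 20 RNA-seq libraries, made by the authors from stranded, paired-end poly(A) libraries with cutadapt, HISAT2 2.1.0 and featureCounts 2.0.1 on mm10 with Ensembl GRCm38.102. The study's methods name reverse-strand counting, but the command stored in the file header shows no strand or pair option. If mates were counted apart, counts overstate the number of fragments. Of counts between 10 and 50, 54.9% to 59.8% were even.

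Genes were tested within each organ by edgeR 4.0.16 (R 4.3.3; filterByExpr, TMM, robust quasi-likelihood fit, Benjamini-Hochberg over all genes tested), with DESeq2 1.42.0 as an alternative. Organ contrasts and the mean of 4 organs came from 1 fit of all libraries. Log2 CPM used a prior count of 2. On simulated data with 4-fold changes the liver test recovered 167 of 196 changed genes with 25 false calls, the kidney test 26 of 188 with 8, and the small intestine test 0 of 185 with 1.

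The members and the gene lists were chosen with earlier results of these data known. Named genes were all members, list genes called, the 3 highest and 3 lowest of each list in the liver, and the 3 most correlated genes per member. Some genes that this rule names are not reported here. Further genes (Jak1, Jak2, Hnf4a) were named after their values were seen. Alternatives were other scalings, filters and thresholds, a replicate block, and leaving out each library.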

Additional observations from a re-analysis of the deposited data

How the results depend on the processing

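Of the counts of called members, those for heart, small intestine, the mean of the 4 organs other than liver and the organ contrasts kept within 1.5 times of their value under each alternative run. In the liver the count of 0 among 8 became 1 with DESeq2, 1 with no filter on low counts (Socs2 each time), and 0 to 2 on leaving out a library. In kidney the count of 0 ran from 0 to 4, and in spleen from 0 to 1 (A1bg, called lower without WT replicate 1), on leaving out a library. That spleen fit has as its only WT library replicate 2, with 3431 CPM of hepatocyte transcripts, and called 301 of 19970 genes lower. The count of 0 for a genotype effect that differs between organs became 1 (Igfals) with no filter, beside 973 of 36620 genes. In liver 53 genes were called with DESeq2 and 122 with no filter, against 8. Leaving out 1 liver library at a time, the log2 fold changes ran from -1.33 to 0.92 for Bcl6, -0.50 to 1.34 for Cish, -0.24 to 0.011 for Ghr, -0.48 to 0.30 for Stat5a and -0.16 to 0.13 for Stat5b. The cause was not tested. Such fits leave 1 library in an arm and assume that it varies like the rest. List counts without single libraries and with DESeq2 were chosen after seeing the data.

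Replicate numbers are shared between genotypes but not tied to animals. The deviations of same-numbered WT and KO libraries correlated at 0.04 in liver, 0.13 in kidney, 0.37 in heart, 0.57 in small intestine and 0.01 in spleen. With the replicate block 0 members were called in each organ, the organ contrasts gave 39 calls in place of 53 and 2 in place of 3, and Bcl6 in liver turned to -0.11.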
